A study of Mus musculus with 2 samples.

Results

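The Bcl2 family decides whether the outer membrane of mitochondria stays sealed or is opened to start cell death. Survival proteins (Bcl-2, Bcl-xL, Bcl-w and Mcl-1) bind and restrain their death-promoting relatives. Pore-forming proteins such as Bak open the membrane, and the BH3-only proteins (Bim, Bid, Bad, Bik and Bmf) either activate the pore formers or occupy the survival proteins. Resting lymphocytes depend on this balance, with Bcl-2 and Mcl-1 as the best known survival factors of mature B cells and Bim as a main trigger of their death.

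Accessible chromatin was examined at 10 genes of this family that are not among its classic p53 targets. They are 4 survival members (Bcl2, Bcl2l1, Bcl2l2 and Mcl1) and 6 death members (Bcl2l11, which encodes Bim, and Bid, Bad, Bak1, Bik and Bmf), out of 22350 protein-coding genes of the annotation. A DNase I hypersensitive site (DHS) is a stretch of DNA that the enzyme DNase I cuts readily because it is not wrapped in nucleosomes. A DHS was counted for a member when it overlapped the gene body or the 50 kb on either side, which gave 139 of the 47542 DHS in the list. The survival genes lie on mm9 with Bcl2 at chr1:108434755-108610851, Bcl2l1 at chr2:152593052-152657464, Bcl2l2 at chr14:55502214-55507071 and Mcl1 at chr3:95462643-95467099. The death genes lie with Bcl2l11 at chr2:127951774-127988283, Bid at chr6:120841948-120866871, Bad at chr19:7016351-7026388, Bak1 at chr17:27156755-27165954, Bik at chr15:83357292-83375065 and Bmf at chr2:118354493-118375423. Bcl2, Bcl2l1, Bid, Bak1 and Bmf are transcribed from the minus strand and the others from the plus strand. The windows of the members did not overlap one another.

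The cells were splenic B cells of C57/Bl6 mice aged 8 weeks, Trp53+/+ and mock treated, enriched by magnetic selection for B220, a form of CD45 carried by B cells. The series holds 1 DNaseI library and 1 input library of the same description, and no replicate of either, so every comparison below is a description without a test. According to the methods of the study, apoptotic cells had been removed on a Ficoll gradient before the nuclei were digested. How many mice were pooled is not given in the sources used here. The depth of the library is unknown, since the list gives no read counts, and where no DHS is listed the site may be closed or below the limit of the caller. Each DHS has a score from the peak caller whose scale is not stated. Over the 47474 DHS on chromosomes 1 to 19 and X the scores had a median of 32.65 and ranged from 5.05 to 619.4. Markers of the labelled cell type were open, since the B cell genes Cd79a, Cd79b, Ms4a1, Pax5, Cd22, Blk and Fcer2a all had a promoter DHS, with best scores from 72.1 at Fcer2a to 265.3 at Pax5. Of 8 T cell genes only Trac had one, with a score of 8.58. Of 8 myeloid genes 4 had one (Itgam, Elane, Cd14 and Csf3r), with scores from 12.3 to 51.1, while Csf1r, Ly6g, Mpo and Lyz2 did not, which is near the share of 57.0% among all protein-coding genes. The part of other cells in the DHS described here was not tested.

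The promoters that the results turn on are shown first. They are the 3 members with the highest and the 2 with the lowest score of the best promoter DHS, each as the 200 bases just upstream of the annotated 5′ end of the gene, on the strand of the gene and on build mm9. Capitals mark the exact words GGGCGG (GC box) and GGAAGT (ETS word) on either strand. The other words that were searched do not occur in these stretches.
Bad promoter, chr19:7016151-7016350, plus strand: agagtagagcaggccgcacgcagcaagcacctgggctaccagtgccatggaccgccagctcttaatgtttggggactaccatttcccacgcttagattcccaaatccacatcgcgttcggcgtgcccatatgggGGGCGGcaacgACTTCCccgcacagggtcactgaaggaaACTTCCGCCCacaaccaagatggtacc
Bcl2l11 promoter, chr2:127951574-127951773, plus strand: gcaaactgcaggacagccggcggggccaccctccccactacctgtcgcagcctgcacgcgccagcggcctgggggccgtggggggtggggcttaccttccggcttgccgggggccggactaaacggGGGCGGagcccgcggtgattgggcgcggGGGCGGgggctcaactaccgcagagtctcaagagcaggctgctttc
Bcl2l1 promoter, chr2:152657465-152657664, minus strand: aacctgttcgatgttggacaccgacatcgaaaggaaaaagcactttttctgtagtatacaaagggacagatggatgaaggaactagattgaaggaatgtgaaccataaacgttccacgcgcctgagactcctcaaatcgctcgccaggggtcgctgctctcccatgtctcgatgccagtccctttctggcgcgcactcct
Bcl2l2 promoter, chr14:55502014-55502213, plus strand: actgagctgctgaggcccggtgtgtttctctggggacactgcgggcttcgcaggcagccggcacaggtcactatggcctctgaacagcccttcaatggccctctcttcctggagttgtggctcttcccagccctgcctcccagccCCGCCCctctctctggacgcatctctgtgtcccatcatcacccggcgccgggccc
Bik promoter, chr15:83357092-83357291, plus strand: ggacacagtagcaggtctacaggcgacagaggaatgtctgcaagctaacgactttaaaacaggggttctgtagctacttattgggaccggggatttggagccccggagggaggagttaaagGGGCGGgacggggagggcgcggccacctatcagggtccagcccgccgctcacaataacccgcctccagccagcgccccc

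All 200 bases lay inside a DHS at Bad, Bcl2l11 and Bcl2l1, against 101 bases at Bcl2l2 and 145 bases at Bik. The GC content of the stretches was 58.5% at Bad, 72.5% at Bcl2l11, 50.5% at Bcl2l1, 65.5% at Bcl2l2 and 61.5% at Bik. GC content thus did not follow the order of the scores among these 5 stretches. In these stretches Bad held 2 GC boxes and 2 ETS words, and Bcl2l11 held 2 GC boxes. Bcl2l2 and Bik held 1 GC box each, and Bcl2l1 held none of the words. The promoter DHS of Bcl2l1 was centred 506 bp inside the gene, where its central bases had 72% GC and 2 GC boxes. At the centre of the best promoter DHS, Bad had 62.7% GC and Bcl2l11 65.3%, with 1 GC box each. Bcl2l2 had 50.7% and Bik 67.7%, with 0 GC boxes. GC content at these centres did not follow the order of the scores either.

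To ask whether the promoters of survival and death genes are open in unstressed B cells, promoter DHS were counted. Promoters were taken, as the study did for p53 sites, to begin 5 kb before a transcription start site (TSS) of the gene and to end 2 kb past it, for every annotated TSS. All 4 survival members and all 6 death members had at least 1 promoter DHS, against 57.0% of all protein-coding genes. The exact 95% interval for 10 of 10 genes was 69.2 to 100%. It treats the genes as random draws, although they are a chosen list, so it does not weigh the members against all genes. A DHS lay over an annotated TSS in all 10 members, against 46.6% of protein-coding genes. At Bcl2l2 this held only through a DHS with a score of 10.98 over an internal TSS, not over the 5′ end of the gene. In total 8 of the 10 had a promoter DHS at or above the median score of the list, against 50.3% of protein-coding genes, and Bcl2l2 and Bik did not. The number of promoter DHS per member went from 1 at Bcl2l1 and Mcl1 to 6 at Bmf. Survival and death members therefore did not differ in whether a promoter DHS was present.

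The members differed widely in the score of their best promoter DHS. The highest was 315 at Bad, a BH3-only protein that survival signals silence by phosphorylation (chr19:7015593-7017548, over exons 1 and 2). It stood at percentile 99.2 of all DHS, and its window also overlapped the promoter of the neighbour Gpr137, so that the DHS cannot be assigned to Bad alone. The other promoter DHS of Bad scored 62.6. Bcl2l11 followed with 184.7 (chr2:127950504-127954121), a DHS of 3618 bp over exon 1 and part of intron 1 of the gene for Bim. Bcl2l1, which encodes Bcl-xL, had 163 (chr2:152656034-152657883). These 3 were the members above the upper quartile of 152 among the 12747 protein-coding genes with a promoter DHS.

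A middle group lay close to the median of those genes, which was 101. The score was 108.5 at Bak1 (chr17:27164130-27165981), which encodes a pore former, and 104.4 at Bcl2 (chr1:108610002-108610910). It was 95.97 at Bmf (chr2:118371684-118372813), a BH3-only protein held at the cytoskeleton, and 93.7 at Mcl1 (chr3:95461763-95465360), whose product turns over rapidly. The DHS at Mcl1 was 3598 bp wide and ran from the promoter across all 4 exons into the 3′ UTR of this short gene.

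The lowest scores were found at Bid, Bcl2l2 and Bik. Bid, which caspase-8 cleaves into its active form, had 54.7, in a DHS of 3931 bp (chr6:120863814-120867744). Bcl2l2, which encodes Bcl-w, had 20.4 at a DHS of 397 bp that ended 101 bp into the 200 bases shown above, and 10.98 at another of 416 bp over exon 2. Both also overlapped the promoter of Gm20521, an overlapping annotated gene. Bik, a BH3-only protein of the endoplasmic reticulum, had 16.9 over exon 1 and 11.2 just upstream. Only 4.19% of the genes with a promoter DHS scored below Bik and 6.10% below Bcl2l2. The median of the best score was 99.1 for the survival and 102 for the death members, and the ranges of 20.4 to 163 and 16.9 to 315 overlapped.

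**Figure D1:**
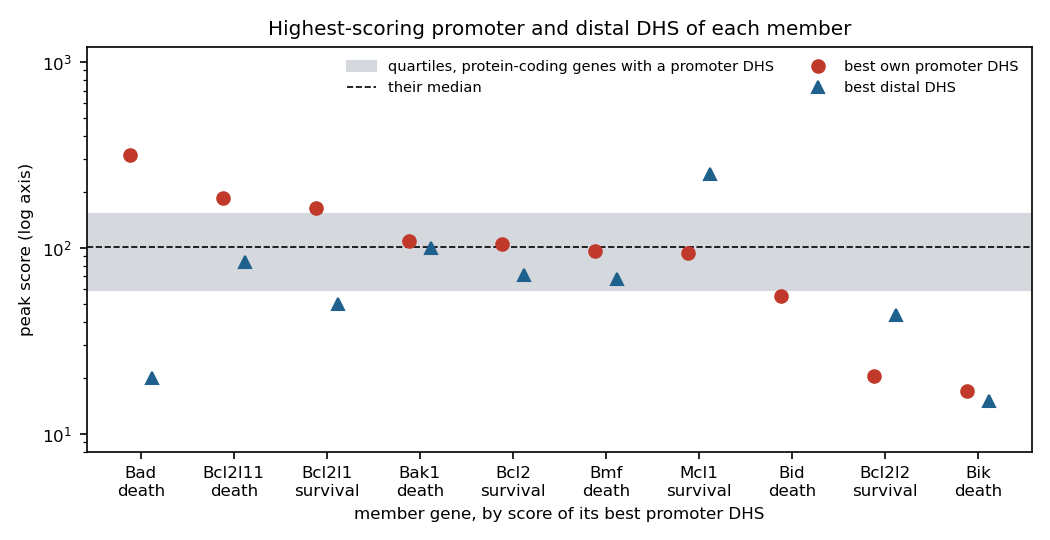
The authors' peak score on a log axis for the best promoter DHS (circles) and best distal DHS (triangles) of each of the 10 members, with the quartiles (grey band) and median (dashed line) of the best promoter DHS over 12747 protein-coding genes. Bad, Bcl2l11 and Bcl2l1 lie above the band, Bid, Bcl2l2 and Bik below it, and at Mcl1 and Bcl2l2 the distal DHS scored higher than the promoter; Bid has no distal DHS.

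Base composition set 2 members apart. In the 1000 bp around the 5′ end of the gene, 8 of the 10 members were CpG-rich (55% GC or more, with CpG dinucleotides at 0.6 or more of the number that base content predicts), against 38.5% of protein-coding genes. The ratio was highest at Mcl1, with 0.963, and at Bcl2, with 0.870. It was 0.336 at Bcl2l2 and 0.279 at Bak1, the members that were not CpG-rich. Among all protein-coding genes 85.5% of the CpG-rich and 39.2% of the other promoters had a DHS. The best promoter scores of these 2 members were 20.4 and 108.5, and those of the 8 CpG-rich members ran from 16.9 at Bik to 315 at Bad.

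DHS density was then compared over the whole windows. The survival members had 63 DHS in 650 kb, or 9.69 per 100 kb (95% Poisson interval 7.45 to 12.4). The death members had 76 DHS in 719 kb, or 10.6 per 100 kb (8.32 to 13.2). The ratio of survival to death was 0.918 (0.647 to 1.30), so that no difference in overall density was detectable in this list. Intervals cover counting error only and treat DHS as independent, although DHS lie in clusters. All 10 members were above the median of 3.39 per 100 kb over all protein-coding genes, and Bid, with 4.80, was the lowest of them.

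Single members were spread over a range of 4.80 to 16.4 DHS per 100 kb. At the top were Bad with 18 DHS (16.4 per 100 kb), Mcl1 with 17 (16.3), Bmf with 18 (14.9) and Bak1 with 16 (14.7), each above at least 97.1% of protein-coding genes. Bcl2l2 followed with 10 DHS (9.54), Bcl2l1 with 14 (8.52), Bcl2 with 22 (7.97), Bcl2l11 with 10 (7.33), Bik with 8 (6.79) and Bid with 6 (4.80). The counting intervals of neighbours in this order overlapped throughout. Those at the top were 1 survival and 3 death members, but the intervals did not set them apart as a group.

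**Figure D2:**
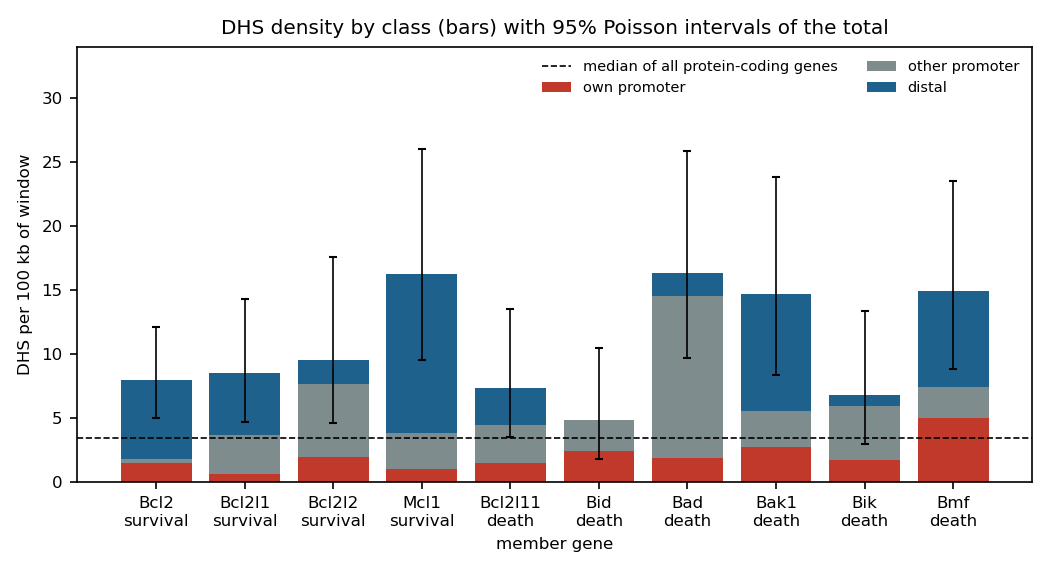
DHS per 100 kb of window for each member, stacked by whether the DHS overlapped the member's own promoter, the promoter of another annotated gene only, or no promoter (distal), with the 95% Poisson interval of the total as error bars and the median of 22350 protein-coding genes (3.39) as a dashed line. Bad and Mcl1 reach similar totals of 16.4 and 16.3, but 14 of the 18 DHS at Bad overlap promoters of other genes while 13 of the 17 at Mcl1 are distal.

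DHS were then split by kind. Of the 63 DHS of the survival members, 8 overlapped the member's own promoter, 15 the promoter of another gene only, and 40 were distal, that is, outside all annotated promoters. Of the 76 DHS of the death members, 18, 32 and 26 fell into these classes. The distal share was 63.5% (exact interval 50.4 to 75.3) for the survival and 34.2% (23.7 to 46.0) for the death members, beside 52.5% of all DHS on these chromosomes. With windows of 100 kb on either side the shares were 56.4% (44.7 to 67.6) and 43.4% (34.5 to 52.7), with overlapping intervals. The intervals overlapped under 4 of the 8 processing settings, the others being 50 kb around the 5′ end, promoters of 1 kb on each side and DHS at or above the median score. They also overlapped without Bcl2, without Mcl1 and without Bad, where the share of the death members was 41.4% (28.6 to 55.1). Distal DHS numbered 6.16 per 100 kb (4.40 to 8.38) at the survival and 3.61 (2.36 to 5.30) at the death members, a ratio of 1.70 (1.01 to 2.91). This ratio was formed after the distal counts had been seen, and it was 1.04 (0.683 to 1.59) with windows of 100 kb on either side. Without Mcl1 it was 1.37 (0.769 to 2.44), and with DHS placed by their centres it was 1.58 (0.952 to 2.66). It was 2.80 (1.19 to 7.61) with 10 kb on either side and 1.91 (1.05 to 3.5) within 50 kb of the 5′ end, but the lower bound was under 1 in 6 of the 8 processing settings and when any of 6 of the 10 members was left out.

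Distal density overlapped between the groups when each member was taken by itself. Mcl1 had 12.4 distal DHS per 100 kb, Bcl2 had 6.16, Bcl2l1 had 4.87 and Bcl2l2 had 1.91. Among death members Bak1 had 9.16, Bmf 7.44, Bcl2l11 2.93, Bad 1.82 and Bik 0.849, and Bid had 0. Of the death members, Bak1 and Bmf held 19 of the 26 distal DHS. The median over all protein-coding genes was 0.873, so that Bik and Bid lay below it and the other 8 members above it.

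The members also differed in the number of neighbouring genes, whose part in the difference between the groups was not tested. The window of Bad held 14 other protein-coding genes and 67.1% of it was promoter by annotation, against 2 other genes and 7.44% at Bcl2. Bid also had 2 others and 0 distal DHS, a count that depends on an internal noncoding transcript, as given below. Bak1 and Bik had 4 others each, with 10 and 1 distal DHS. The 35 protein-coding genes with 14 others in their window had a median of 12.7 DHS per 100 kb, beside the 16.4 at Bad. Mcl1 and Bcl2l1 had 3 others each, and genes with 3 others had a median of 3.77 DHS and 0.946 distal DHS per 100 kb. Counted only over bases outside promoters, distal density was 8.36 per 100 kb for the survival and 5.33 for the death members.

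**Figure D3:**
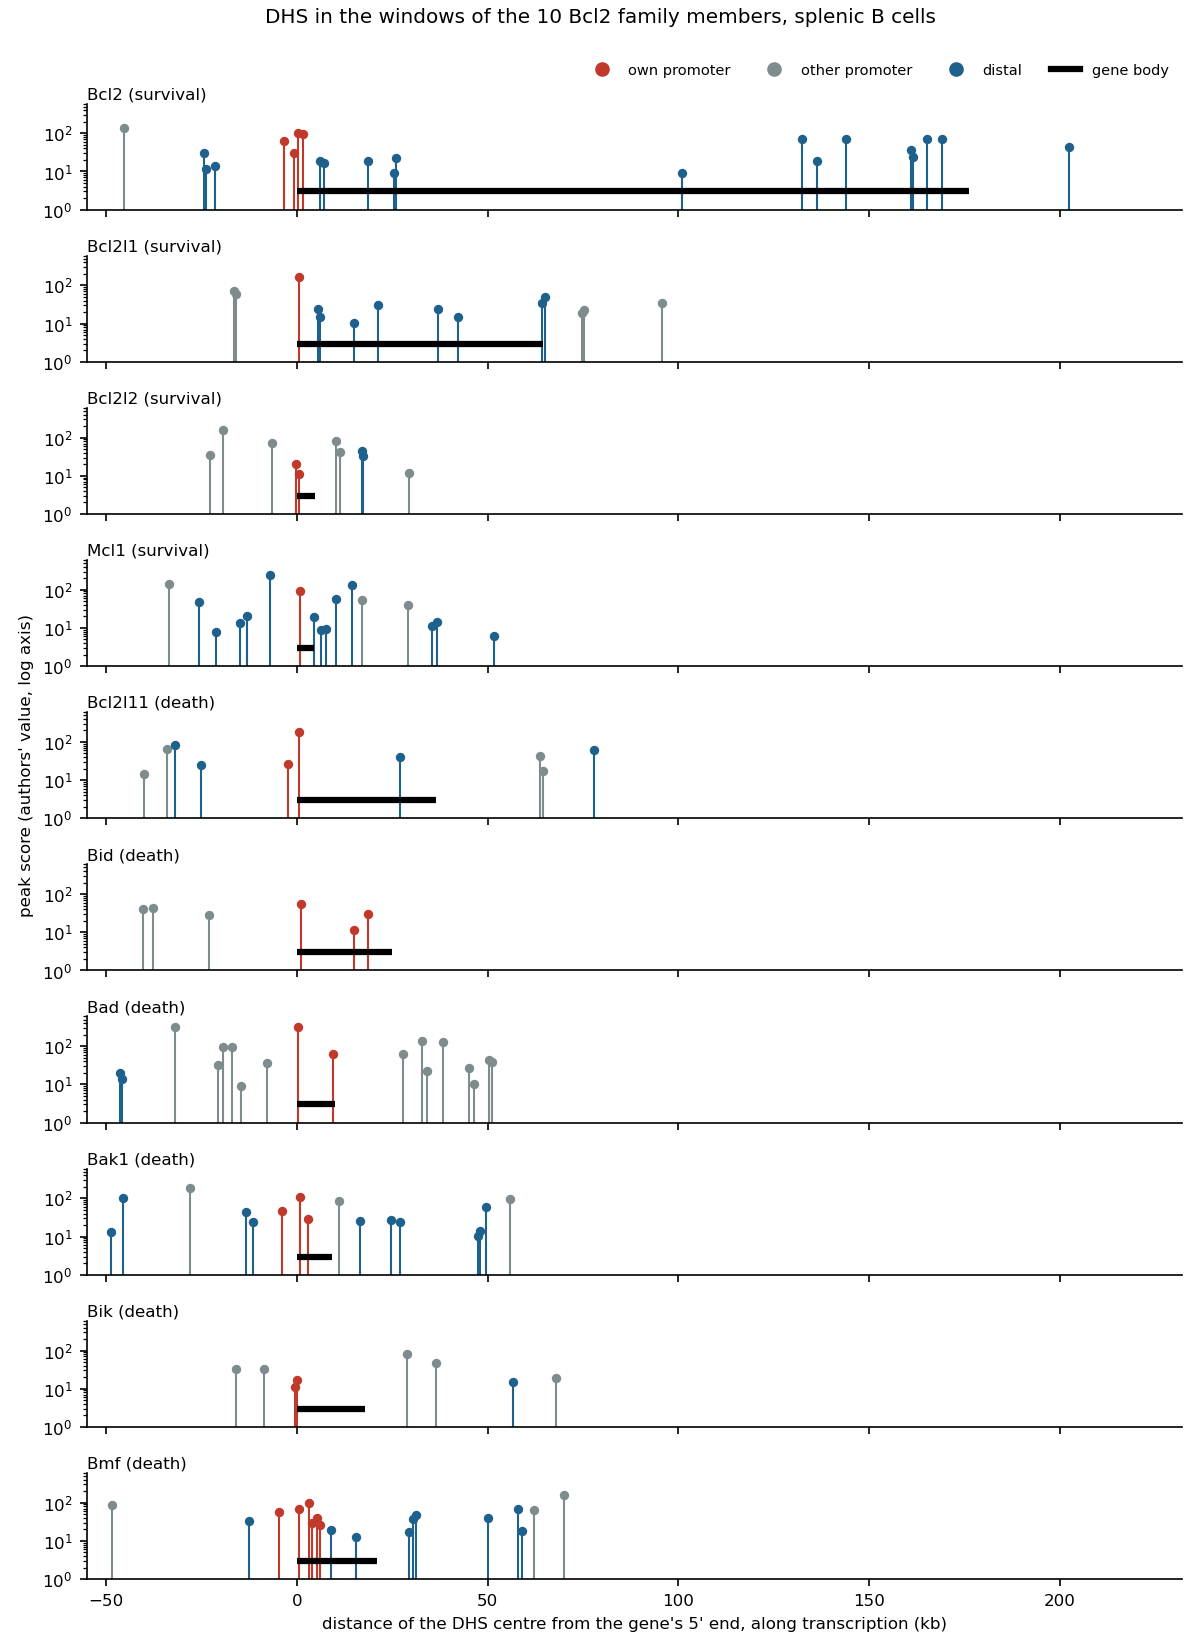
Each DHS in the 10 windows, placed by the distance of its centre from the 5′ end of the gene along the direction of transcription (kb) with its score on a log axis; colours give the class and the black bar the gene body. Mcl1 is flanked by distal DHS on both sides, the DHS inside Bcl2 gather at the ends of its long intron, and the body of Bad holds only DHS of its own promoters.

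Mcl1 had the largest share of its window in DHS among the 10 members. DHS covered 22.7% of its window, more than in 99.5% of protein-coding genes. Its highest-scoring DHS was not at the promoter but 7049 bp upstream of the TSS, in intergenic sequence (chr3:95454043-95457146). This DHS was 3104 bp wide and had a score of 250.35, at percentile 98.3 of the list, against 93.7 at the promoter. Another distal DHS lay 14417 bp downstream of the TSS (chr3:95475941-95478179), with a score of 135.4. The remaining 11 distal DHS at Mcl1 scored between 6.23 and 58.6. Joined at gaps under 10 kb, the promoter DHS of Mcl1 belonged to a run of 16 DHS over 71.6 kb (chr3:95428369-95499940), and 313 of 20928 such runs in the list held 10 or more. The run began at the promoter DHS of the neighbour Ensa and included promoter DHS of Adamtsl4. The distal DHS with a score of 135.4 lay next to one of these Adamtsl4 DHS. Neither the run nor that distal DHS can be assigned to Mcl1 alone.

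Bcl2 had the most DHS of the family, 22, and also the longest gene, at 176097 bp. Its promoter held 4 DHS within about the first exon and the sequence upstream of it, with scores of 97.9, 104.4, 30.2 and 63.5. The single intron of the longest coding transcript, 168906 bp long, contained 13 distal DHS, or 7.70 per 100 kb. Of 3015 introns of at least 50 kb, 26.5% held any distal DHS inside, and 96.3% had a lower density than this one. Counted after their positions had been seen, 5 of the 13 lay near the 5′ end of the intron, within 26067 bp of the TSS, 7 lay in the part nearest the 3′ end and 1 lay between. The 7 included the highest 4 of the intron, with scores of 71.1, 69.3, 69.1 and 68.7, and 3 lower ones of 19.3, 24.5 and 36.5. The 5 near the 5′ end scored from 8.99 to 22.1. Of the 7, 5 also overlapped the annotated noncoding gene D630008O14Rik on the opposite strand, and peaks cannot be assigned to either gene.

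Bcl2l1 also had a long intron with distal DHS, placed otherwise than in Bcl2. Its intron 2, of 61967 bp, held 6 distal DHS, 2 of them near its 5′ end, 4 in the middle and 0 toward its 3′ end (9.68 per 100 kb, above 97.4% of introns of at least 50 kb). Their scores were 10.4 to 31.3, well below the 163 of the promoter. A DHS with a score of 35.7 covered the last exon, and another with a score of 49.9 lay just past the 3′ end of the gene. Both long introns of the survival members thus contained distal DHS. No death member had an intron of at least 50 kb, so the comparison could not be made there.

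Bcl2l2 had mostly DHS of other genes in its window. Of its 10 DHS, 6 overlapped promoters of neighbours, the highest with a score of 158 at Homez, and 2 were distal. The distal ones scored 43.4 and 33.65 and lay 16558 and 17034 bp from the nearest TSS of Bcl2l2. Its neighbour Pabpn1, which codes for a poly(A)-binding protein, had promoter DHS of 83.4 and 42.8. The promoter DHS of Slc22a17 scored 11.9, the only neighbour DHS in the window below the 20.4 of the promoter of Bcl2l2 itself.

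Among the death members Bmf and Bak1 were surrounded by many DHS. Bmf had 6 promoter DHS, spread over 8 annotated TSSs, with scores from 25.97 to 95.97. Its 9 distal DHS scored from 12.3 to 67.5, and 3 of them lay together 24331 to 26074 bp from the nearest TSS, past the 3′ end of the gene. Bak1 had 10 distal DHS. Its other promoter DHS scored 29.4 and 46.4. The gene lies inside the larger Ggnbp1, on the opposite strand, and 2 of its 3 promoter DHS, with the best one, also fell in a promoter of Ggnbp1. The highest distal DHS, with a score of 100.07, lay 45634 bp upstream inside Itpr3, the gene of an inositol trisphosphate receptor (chr17:27210851-27212325). A further 6 lay in introns of Ggnbp1 downstream of Bak1.

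Bcl2l11 had a high promoter score and 4 distal DHS. Of these, the highest scored 84.0 and lay 32002 bp upstream in an intron of the neighbour Acoxl (chr2:127918965-127920579). Another lay in intron 3 of Bcl2l11 itself, with a score of 41.4, and a further one in the noncoding genes Gm14005 and Gm14009, with a score of 62.9. The promoter DHS had a companion of 2083 bp immediately upstream with a score of 27.1.

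Bid, Bad and Bik had few distal DHS, and the survival member Bcl2l2 had 2, as many as Bad. Bid had 0 of 6. Its remaining DHS were 3 at its own promoters, scoring 54.7, 30.7 and 11.7, and 3 at promoters of Mical3, scoring from 27.9 to 43.0. The DHS with scores of 30.7 and 11.7, centred 18588 and 14919 bp downstream of the 5′ end of the gene, were counted as promoter only through the start of 1 internal noncoding transcript, so the count of 0 distal DHS depends on that transcript. Bad had 2 distal DHS, 45785 and 46369 bp upstream, with scores of 13.7 and 19.9. Bik had 1, with a score of 14.97, in an intron of Ttll12. Counted only over bases outside promoters, distal density was 5.53 per 100 kb at Bad, 1.25 at Bik and 0 at Bid. On this measure Bcl2l2 had 4.41, Bcl2l11 3.53 and Bcl2 6.65, so Bad was not low among the members. The highest DHS in the windows of Bad and Bik belonged to neighbours, with 317 over the promoters of Prdx5 and Trmt112 and 79.1 at Mcat. The same held at Bcl2 (136.3 at Kdsr), Bcl2l2 (158 at Homez), Bak1 (181.9 at Itpr3) and Bmf (160.96 at Srp14).

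The limit of 50 kb left out some DHS by a small margin. At Bik the last DHS inside was 49941 bp from the gene, with a score of 19.6, and the next outside was at 50609 bp, with 9.92. At Bcl2l2 a DHS with a score of 18.0 lay at 50903 bp. At Bid the next DHS lay at 54597 bp on one side, with a score of 40.3, and at 54737 bp on the other, with 162.7, the promoter DHS of its relative Bcl2l13.

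The highest-scoring distal DHS at Mcl1, Bak1, Bcl2l11 and Bcl2, the members with the highest distal scores, are shown as the central 200 bases on the plus strand of mm9. Capitals again mark exact words, which are an E-box (CACGTG) at Bak1 and an octamer (ATGCAAAT) and an ETS word at Bcl2, with none at Mcl1 and Bcl2l11. The list gives no summits, so the centre of a DHS need not be its most accessible point.
Mcl1 distal DHS, chr3:95455495-95455694, plus strand: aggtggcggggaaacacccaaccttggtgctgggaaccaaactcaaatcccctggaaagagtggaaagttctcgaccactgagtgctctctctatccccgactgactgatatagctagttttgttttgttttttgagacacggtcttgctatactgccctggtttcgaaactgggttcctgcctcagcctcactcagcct
Bak1 distal DHS, chr17:27211489-27211688, plus strand: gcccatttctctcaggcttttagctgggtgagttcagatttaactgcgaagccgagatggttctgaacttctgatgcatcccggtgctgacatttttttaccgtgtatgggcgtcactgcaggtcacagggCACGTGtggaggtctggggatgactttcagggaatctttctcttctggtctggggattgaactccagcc
Bcl2l11 distal DHS, chr2:127919673-127919872, plus strand: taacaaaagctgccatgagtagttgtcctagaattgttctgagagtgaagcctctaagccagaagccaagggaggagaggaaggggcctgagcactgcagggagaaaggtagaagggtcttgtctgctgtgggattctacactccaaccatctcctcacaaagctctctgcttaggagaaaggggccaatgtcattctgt
Bcl2 distal DHS, chr1:108445544-108445743, plus strand: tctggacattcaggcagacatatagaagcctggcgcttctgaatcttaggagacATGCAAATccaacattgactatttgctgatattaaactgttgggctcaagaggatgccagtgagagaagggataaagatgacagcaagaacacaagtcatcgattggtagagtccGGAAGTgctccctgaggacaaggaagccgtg

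Motif words were counted in the central 300 bases of each DHS, on both strands and without mismatches. The ETS word GGAAGT, the core bound by PU.1 and related factors of B cells, was in 29 of the 139 DHS (20.9%, exact interval 14.4 to 28.6), beside 23.3% of all DHS. The RUNX word TGTGGT was in 30 (21.6%) beside 20.6%, and the GC box GGGCGG in 26 (18.7%) beside 18.7%. The FOXO word GTAAACA was in 9 (6.47%, 3.0 to 11.9) beside 3.63%, and the E-box CACGTG in 10 (7.19%) beside 5.94%. The octamer ATGCAAAT was in 2 DHS (1.44%), both of survival members, beside 1.63%. The word GGANTTTCC, a form of the NF-kappaB site, was in 3 (2.16%) beside 1.23%. The cyclic AMP response word TGACGTCA was in 0 of 139, which the exact interval extends to 2.62%, beside 0.680%. For 8 words the interval of the members included the share of all DHS. Among distal DHS alone the FOXO word was in 7 of 66 (10.6%, 4.37 to 20.6), whose interval lay just above the 4.21% of all distal DHS, a value singled out among the 8 words after it was seen. The intervals of survival and death members overlapped for each word, with the ETS word in 17.5% (9.05 to 29.1) against 23.7% (14.7 to 34.8).

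**Figure D4:**
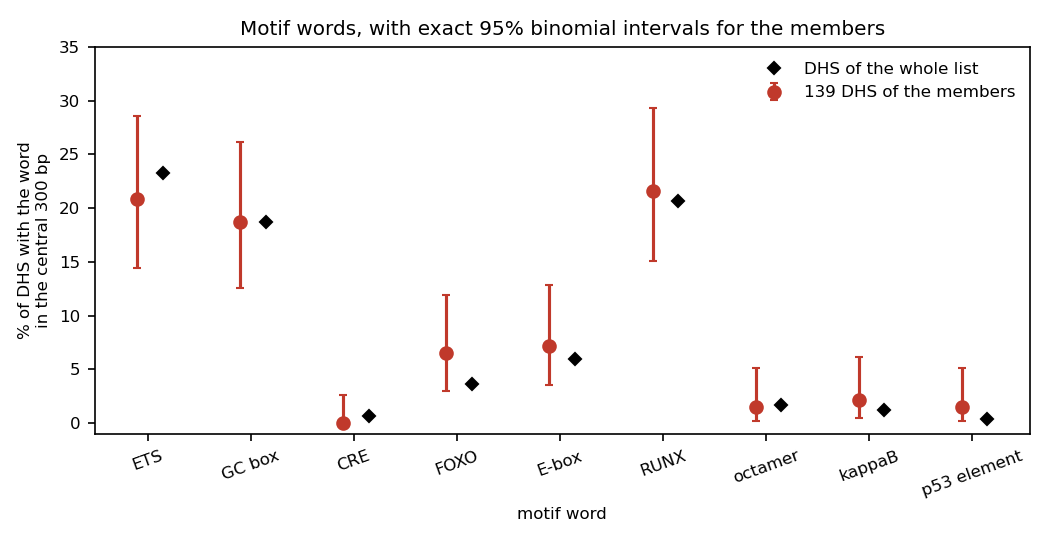
Share of DHS with each motif word in the central 300 bases, for the 139 DHS of the members (circles with exact 95% binomial intervals) and all 47474 DHS of chromosomes 1 to 19 and X (diamonds). The interval of the members includes the share of the whole list for each of the 9 words and elements, among them the p53 element.

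The p53 element, a pair of adjacent decamers matching the p53 consensus with at most 2 mismatches and an intact C and G in each core, was searched over whole DHS. It occurred in 3 of the 139 DHS (2.16%, 0.447 to 6.18), beside 1.02% of all DHS. Each of the 3 had 2 mismatches, and capitals mark the core C and G.
Element near Mcl1, chr3:95468916-95468935: aggCttGcgccaaCatGccc
Element near Bad, chr19:7001649-7001668: aggCtaGgccaaaCaaGatc
Element near Bad, chr19:7050283-7050302: agtCtaGtctgggCtaGcat

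The element near Mcl1 lay in a distal DHS with a score of 8.94, centred 6446 bp downstream of the TSS. Those near Bad were at promoters of neighbours, in DHS that scored 8.99 at 1700019N12Rik and 23.0 at Ppp1r14b. None was in a promoter DHS of a member. A match is a resemblance in letters and not evidence of binding.

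The rest of the pathway was examined for comparison through lists drawn up from general knowledge. Of 13 other Bcl2 family genes, 8 had a promoter DHS (61.5%, 31.6 to 86.1), near the 57.0% of all protein-coding genes, against which the counts of the next lists also stand. Bok, Hrk, Bcl2l10, Bcl2l15 and Bcl2a1a did not. The genes of the Bcl2a1 cluster are near-identical copies, where reads cannot be placed reliably, so its members are uncertain. Classic p53 targets in this list scored 372.6 at Bbc3, 204.5 at Pmaip1 and 85.8 at Bax, where the first is above and the last below Bad and Bcl2l11. All 13 genes of caspases and the mitochondrial death pathway had a promoter DHS, with scores from 53.1 at Casp6 to 212 at Casp9, both named after their values had been seen. Of 8 genes of inhibitors of apoptosis and related proteins 7 had one, with scores from 46.6 to 258, and Naip1, which also belongs to a cluster of similar copies, did not. The medians of the best score were 111, 131 and 133 for these lists, beside 99.1 for the survival and 102 for the death members and 101 for all protein-coding genes with a promoter DHS.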

How the data were processed

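One library of DNase I-digested chromatin from splenic B cells was used through its deposited peak list, and the input library has no list of its own here. The submitters' processing notes name BWA 0.6.2, SAMtools and build mm9. Peaks carry names of the MACS caller, whose version and settings for this library are not given in the sources used here. The deposited score per peak is the authors' value and its scale is not stated. Peak starts were converted to count from 1.

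Genes and TSSs came from GENCODE M1 on NCBI build 37 (mm9), and sequences from that genome. Overlaps of at least 1 bp, densities and shares were computed with Python 3.11.15, numpy 2.4.6 and scipy 1.17.1, with exact Poisson or binomial intervals at the 95% level, after the counting had been tested on simulated peaks. Exons and introns refer to the longest protein-coding transcript. Members, lists and words were chosen with earlier results of these data known. All 10 members are named, with each promoter DHS or its range and the highest distal DHS. Genes of a list are named as lacking a promoter DHS if at most 5 do. Alternatives covered score, windows, merging, overlap rule, TSS set and each member left out. Without replicates no test was run. A B cell marker of the list is not reported here.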

Additional observations from a re-analysis of the deposited data

How the results depend on the processing

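The ratio of overall DHS density of survival to death members stayed between 0.731 and 1.11 under the 7 other settings, and between 0.798 and 1.04 when a member was left out. All 10 members kept a promoter DHS within 1 kb of the TSS, by peak centre and with coding TSSs only. With peaks at or above the median score 3 survival and 5 death members had one. Values outside their main interval are given next, survival before death members. With peaks at or above the median score, which removes peaks by construction, the densities were 4.77 and 5.98 per 100 kb, coverage 6.69% and 9.01%, the distal share 45.2% and 23.3% and distal density 2.15 and 1.39. With 100 kb on either side density was 7.43 at survival members, coverage 6.86% and 9.19% and distal density 4.19 at survival members. In the gene body alone density was 14.2 and coverage 16.4% at death members, the distal share 80.8% and 17.6%, distal density 8.41 at survival members and the distal ratio 3.34. Merging peaks closer than 500 bp gave a density of 7.39 at survival members, and promoters of 1 kb on each side a distal share of 48.7% at death members.

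Leaving out each member in turn gave 8.43 to 10.97 and 9.52 to 11.8 DHS per 100 kb, coverage of 6.95 to 11.2% and 10.98 to 13.02%, distal shares of 56.1 to 71.7% and 26.7 to 41.4%, distal densities of 4.95 to 6.97 and 2.62 to 4.37, and a distal ratio from 1.37 without Mcl1 to 2.35 without Bak1. No paired analysis was possible because the series has no replicates. Unknown depth limits every statement on absent DHS.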
